A study of Mus musculus with 8 samples.

Results

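The genes described here are 10 genes of MHC class I presentation: the heavy chains *H2-K1* and *H2-D1*, the light chain *B2m*, the peptide transporter *Tap1* and *Tap2*, its partner *Tapbp*, the immunoproteasome subunits *Psmb8*, *Psmb9* and *Psmb10*, and the regulator *Nlrc5*. They were taken by gene symbol from the 55450 genes of a deposited table, and all 10 were found and passed the filter on low counts. Expression was measured by RNA-sequencing in CD45-EpCAM+ thymic epithelial cells (TECs) sorted from embryos at embryonic day 17 (E17). All embryos carried the same 2 reporters, a tdTomato knock-in at *Ccl21a*, a chemokine gene of the thymus medulla, and a Tnfrsf11a(RANK)-Venus transgene, which marks cells that use the gene of the receptor RANK. No group was treated. The populations were CCL21+RANK- TECs (tdTomato positive and Venus negative, 3 libraries), CCL21-RANK+ TECs (tdTomato negative and Venus positive, 3 libraries) and CCL21-RANK- TECs (negative for both, 2 libraries). They are called CCL21+, RANK+ and reporter-negative TECs for short. The summed counts per library were 59677342, 46003149 and 55116934 in CCL21+, 57286773, 50146758 and 42751858 in RANK+, and 67451448 and 71625319 in reporter-negative TECs. A checklist that accompanies the study calls its replicates biological, but no label says which embryos or pools made each library, so the p-values measure the spread between these libraries.

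MHC class I molecules show peptides from the inside of a cell to CD8 T cells. Proteasomes cut cytosolic proteins, the TAP transporter made of Tap1 and Tap2 carries the peptides into the endoplasmic reticulum, tapasin (the product of *Tapbp*) holds the empty heavy chain and B2m near TAP, and the loaded complex moves to the surface. The catalytic positions of the proteasome, called beta1, beta2 and beta5, hold Psmb6, Psmb7 and Psmb5 in most cells, and interferon-gamma exchanges them for Psmb9, Psmb10 and Psmb8. Cortical TECs instead place the thymus-specific Psmb11 at beta5, which supports the positive selection of CD8 T cells, whereas medullary TECs present self-peptides for tolerance. Nlrc5 is the transactivator of class I promoters, as Ciita is for MHC class II. In the mouse most of these genes lie in the H2 complex.

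Levels are given in RPKM, reads per kilobase of coding-transcript exons scaled to the total counts of the library. Levels of different genes were compared on that per-length scale, except where shares of counts are given as an alternative. The noncoding genes *Gm26917* and *Gm42418* held 6.89% to 19.4% and 1.47% to 10.7% of a library, and such shares lower the RPKM of all other genes. For tests between populations, edgeR's quasi-likelihood test with TMM scaling and Benjamini-Hochberg adjustment over all 21451 genes tested was used, and a gene was called when its adjusted p-value was under 0.05, its fold change over 1.5 and its mean over 1 RPKM in the higher population. Log2 fold changes are given with their standard errors (SE). Comparisons against reporter-negative TECs share the same 2 libraries.

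The sorted populations carried the genes of the sort as follows. *Tnfrsf11a* was at 132, 111 and 128 RPKM in RANK+ TECs, at 10.5, 11.2 and 12.2 RPKM in CCL21+ TECs, and at 3.12 and 2.69 RPKM in reporter-negative TECs. *Ccl21a* was at 561, 346 and 306 RPKM in CCL21+ TECs and at 6.89 and 8.88 RPKM in reporter-negative TECs. In the libraries labelled CCL21-RANK+ it was at 152, 95.9 and 78.2 RPKM, above both reporter-negative libraries although tdTomato was negative at the sort. The epithelial markers *Epcam*, *Foxn1*, *Krt5*, *Krt8*, *Krt14* and *Krt18* were detected in all 8 libraries. Their summed level was 4482 to 5114 RPKM in CCL21+, 1521 to 1876 RPKM in RANK+ and 3919 to 4175 RPKM in reporter-negative TECs. The genes in this sum went both ways. In RANK+ against reporter-negative TECs, *Epcam*, *Krt5* and *Krt14* were called higher and *Foxn1*, *Krt8* and *Krt18* lower, beside 15.2% and 15.4% of all genes.

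Transcripts of other cells differed between the populations too. The 6 macrophage and dendritic cell markers summed to 60.6, 18.6 and 23.5 RPKM in the RANK+ libraries, with *Lyz2* the most abundant at 52.3, 14.7 and 17.9 RPKM, and to at most 0.329 RPKM in any other library, where *Fcer1g*, *Flt3*, *Itgax* or *Adgre1* were at 0 in some. Of these 6 genes, 5 were called higher in RANK+ than in reporter-negative TECs in the test described above, beside 15.2% of all genes. The 9 thymocyte markers summed to 29.1, 12.0 and 23.6 RPKM in RANK+, 13.9, 6.14 and 8.28 RPKM in CCL21+, and 4.66 and 4.11 RPKM in reporter-negative TECs, with *Rag1* or *Lck* the most abundant in each library. The 5 mesenchyme markers summed to 44.2, 18.8 and 27.5 RPKM in RANK+ TECs, where *Col1a1* led, and to at most 5.45 RPKM in any other library. The 5 endothelial markers summed to 4.64, 2.52 and 2.17 RPKM in RANK+ TECs and to at most 0.554 RPKM elsewhere. In CCL21+ TECs the 4 parathyroid markers, led by *Chga*, summed to 9006, 2157 and 2429 RPKM, against at most 30.7 RPKM in any other library. The part of any of these cells, parathyroid cells in the CCL21+ libraries included, in the results for the 10 genes was not tested. In such bulk libraries, fewer cells of a type and less RNA per cell cannot be told apart.

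The promoters of 8 of the 10 genes were matched in RefSeq (GRCm38.p6). The 5 stretches shown are those of the class I complex itself, of the shared region between *Tap1* and *Psmb9*, which start 225 bases apart on opposite strands, and of *Psmb8*, whose level moved the other way from that of *Psmb9* in RANK+ TECs. Each runs 5′ to 3′ up to the base before the start site, on the strand of the gene (for the shared region, that of *Tap1*). Capitals mark matches, on either strand, to TTTCNNTT (the core of the interferon-stimulated response element, in 21.3% of all 32851 promoters of 250 bases), GGGATTCCC (a kappa B site, in 0.301%), TGACG (the core of the cAMP response element, in 17.8%), CCAAT (in 33.8%) and TTCNNNGAA (the gamma-activated site, in 7.02%). The letters to search were chosen with the sequences in view.
H2-K1: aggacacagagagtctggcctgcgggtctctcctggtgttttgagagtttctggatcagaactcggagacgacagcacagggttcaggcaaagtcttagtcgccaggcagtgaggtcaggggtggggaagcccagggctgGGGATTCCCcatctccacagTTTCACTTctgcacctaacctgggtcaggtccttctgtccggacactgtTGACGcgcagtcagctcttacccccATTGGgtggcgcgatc
H2-D1: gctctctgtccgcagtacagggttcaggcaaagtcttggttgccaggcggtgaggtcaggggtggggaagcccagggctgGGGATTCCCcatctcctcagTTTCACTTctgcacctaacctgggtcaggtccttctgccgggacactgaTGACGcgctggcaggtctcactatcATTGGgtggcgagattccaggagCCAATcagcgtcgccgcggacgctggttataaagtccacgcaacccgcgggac
B2m: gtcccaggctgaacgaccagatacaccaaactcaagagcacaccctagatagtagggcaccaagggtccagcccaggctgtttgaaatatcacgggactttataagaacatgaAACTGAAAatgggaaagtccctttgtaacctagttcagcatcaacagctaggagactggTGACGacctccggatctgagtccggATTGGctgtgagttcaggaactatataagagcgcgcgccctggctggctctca
Tap1-Psmb9: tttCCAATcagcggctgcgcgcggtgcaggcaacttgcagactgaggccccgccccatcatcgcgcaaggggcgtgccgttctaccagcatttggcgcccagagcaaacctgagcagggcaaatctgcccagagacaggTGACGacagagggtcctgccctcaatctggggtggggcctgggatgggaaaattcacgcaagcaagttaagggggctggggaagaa
Psmb8: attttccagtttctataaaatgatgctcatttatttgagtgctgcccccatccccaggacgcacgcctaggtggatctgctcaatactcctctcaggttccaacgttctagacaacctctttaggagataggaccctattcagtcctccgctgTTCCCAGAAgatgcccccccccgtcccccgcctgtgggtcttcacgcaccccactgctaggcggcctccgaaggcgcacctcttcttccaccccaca
They lie at chr17:34000348-34000597 (*H2-K1*, minus strand), chr17:35262844-35263093 (*H2-D1*, plus), chr2:122147437-122147686 (*B2m*, plus), chr17:34187331-34187555 (*Tap1* to *Psmb9*, shown on the plus strand) and chr17:34197945-34198194 (*Psmb8*, plus). The windows of *H2-K1* and *H2-D1* each held the kappa B letters, which 99 of the 32851 promoters had, and also TTTCNNTT, TGACG and CCAAT. *B2m* held TTTCNNTT, TGACG and CCAAT, and the region between *Tap1* and *Psmb9* held CCAAT and TGACG. The *Psmb8* window held TTCNNNGAA and none of the other letters. Of the promoters not shown, that of *Tapbp* held CCAAT and that of *Psmb10* matched none of these motifs. For *H2-D1*, *Tapbp*, *Psmb8* and *Psmb9*, the gene in GENCODE M21 begins well upstream of the RefSeq start used here. A match is a description of the letters and not a bound site.

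**Figure D1:**
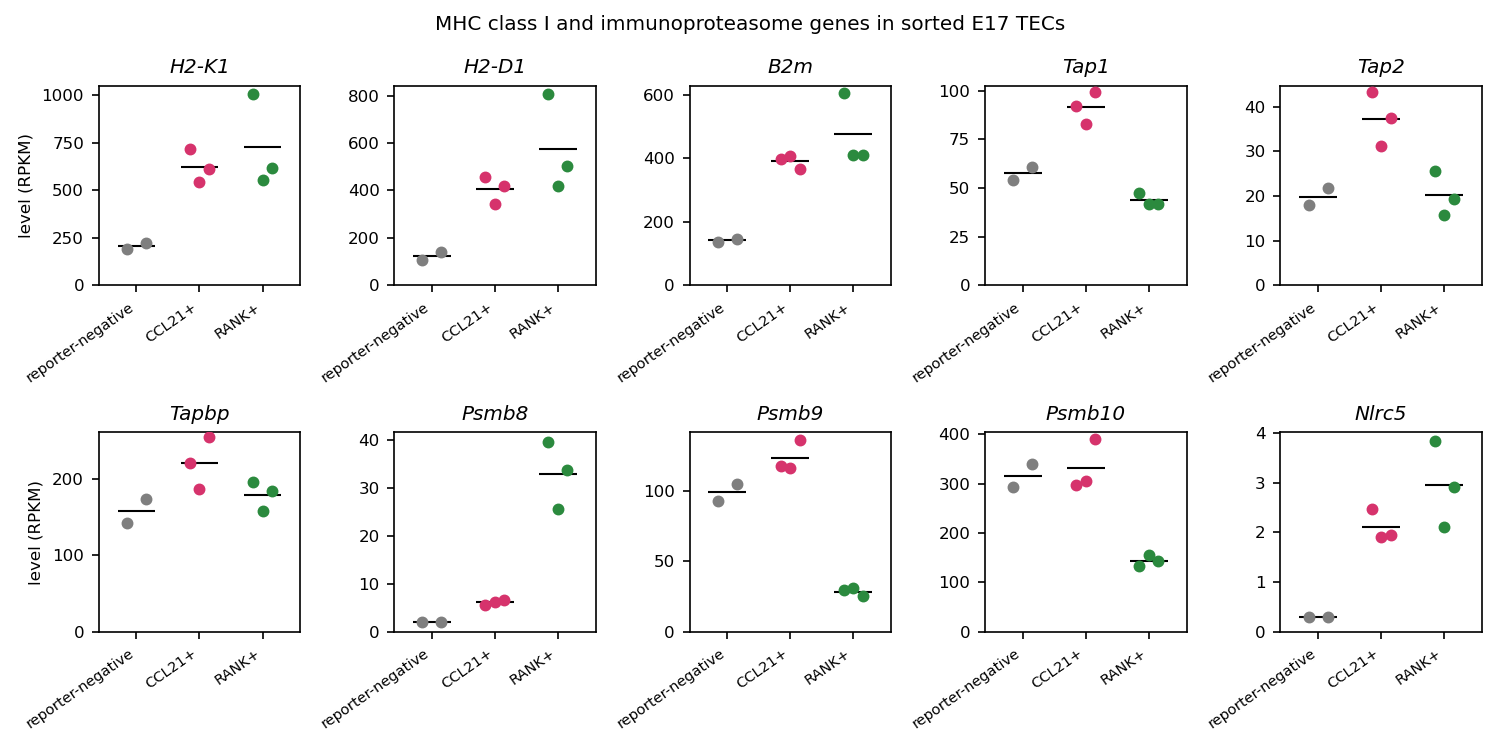
Level of each of the 10 genes in RPKM (vertical axis, linear from 0) in reporter-negative, CCL21+ and RANK+ TECs (horizontal axis). Each point is a library and each black line the mean of 2 or 3 libraries. *H2-K1*, *H2-D1*, *B2m* and *Nlrc5* were low only in reporter-negative TECs, *Psmb8* was highest in RANK+ TECs, and *Psmb9* and *Psmb10* were lowest there.

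The heavy chains, the light chain and *Nlrc5* were higher in both reporter-positive populations than in reporter-negative TECs, and none of them was called between the reporter-positive populations. The peptide transporter was highest in CCL21+ TECs. The 3 immunoproteasome genes parted in RANK+ TECs, where *Psmb8* rose 14.3-fold over reporter-negative TECs while *Psmb9* and *Psmb10* fell. Between CCL21+ and reporter-negative TECs, 7 of the 10 genes were called higher and 0 lower by edgeR (also by DESeq2), beside 4.53% and 3.77% of all genes tested, and the log2 fold changes of the 10 ranged from 0.07 to 2.83 (median 1.19, against 0 over all genes). Between RANK+ and reporter-negative TECs, 5 were called higher and 2 lower, beside 15.2% and 15.4% of all genes, with a median of 0.84 against 0.06. Between RANK+ and CCL21+ TECs, 1 was called higher and 4 lower, beside 16.2% and 15.7% of all genes, with a median of -0.17 against 0.11.

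*H2-K1* (ENSMUSG00000061232.16, chr17:33996017-34000347, minus strand; all gene positions are from GENCODE M21 on GRCm38), a classical class I heavy chain, was at 718, 545 and 612 RPKM in CCL21+ TECs, 1008, 555 and 616 RPKM in RANK+ TECs, and 189.6 and 223 RPKM in reporter-negative TECs. All 6 reporter-positive libraries lay above both reporter-negative libraries, and the reporter-positive populations overlapped. The means were 624.9 ± 87.0 (SD, n = 3), 726 ± 246 (SD, n = 3) and 206 ± 23.6 RPKM (SD, n = 2). Against reporter-negative TECs, *H2-K1* was 3.04-fold higher in CCL21+ TECs (log2 fold change 1.60, SE 0.23, edgeR adjusted p = 0.0022) and 3.22-fold higher in RANK+ TECs (1.69, SE 0.23, edgeR adjusted p = 0.000241). The reporter-positive populations did not differ beyond their spread (log2 fold change 0.08, SE 0.19, edgeR adjusted p = 0.744).

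*H2-D1* (ENSMUSG00000073411.11, chr17:35262730-35267499, plus strand), the other classical heavy chain, was at 457, 343 and 419.8 RPKM in CCL21+ TECs, 806, 419.2 and 504 RPKM in RANK+ TECs, and 106 and 139 RPKM in reporter-negative TECs. It followed the same order as *H2-K1*, with both reporter-negative libraries lowest and an overlap between the other populations. The log2 fold changes against reporter-negative TECs were 1.73 (SE 0.24, edgeR adjusted p = 0.00189) in CCL21+ TECs and 2.11 (SE 0.24, edgeR adjusted p = 8.37e-05) in RANK+ TECs, and the difference between these populations was 0.37 (SE 0.20, edgeR adjusted p = 0.146). Per length, *H2-K1* exceeded *H2-D1* in every library, with ratios of 1.57, 1.59 and 1.46 in CCL21+, 1.25, 1.32 and 1.22 in RANK+, and 1.79 and 1.60 in reporter-negative TECs. The ratio was thus lowest in the 3 RANK+ libraries. Of the 100-base windows of *H2-D1* transcripts, 3.59% also occur in other genes, most of them in *H2-Q1*, and 0.96% of those of *H2-K1*, so a small part of these counts could be divided between class I genes. The strain of the embryos is not given in the sources used here, and reads of class I genes from another haplotype than that of the reference could be counted differently.

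*B2m* (ENSMUSG00000060802.8, chr2:122147686-122153083, plus strand) encodes the light chain that every class I heavy chain needs at the surface. It was at 398, 407 and 368 RPKM in CCL21+ TECs, 605, 412 and 411.5 RPKM in RANK+ TECs, and 137 and 146 RPKM in reporter-negative TECs. Both reporter-positive populations lay above both reporter-negative libraries. In RPKM the lowest RANK+ library lay just above the highest CCL21+ library, but with the TMM scaling of the tests these populations overlapped. The changes were 2.78-fold in CCL21+ TECs (log2 fold change 1.47, SE 0.17, edgeR adjusted p = 0.000893) and 3.08-fold in RANK+ TECs (1.62, SE 0.17, edgeR adjusted p = 4.98e-05). Between the reporter-positive populations the log2 fold change was 0.15 (SE 0.15, edgeR adjusted p = 0.421). The summed heavy chains stood to *B2m* per length at 2.65 ± 0.41 in CCL21+ (SD, n = 3), 2.70 ± 0.32 in RANK+ (SD, n = 3) and 2.32 ± 0.22 in reporter-negative TECs (SD, n = 2), so that the ratio moved little while the levels changed about 3-fold.

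*Nlrc5* (ENSMUSG00000074151.13, chr8:94434356-94527272, plus strand), the class I transactivator, was the least abundant of the 10 genes. It was at 2.48, 1.90 and 1.96 RPKM in CCL21+ TECs (711 to 1200 counts), 3.83, 2.11 and 2.90 RPKM in RANK+ TECs (861 to 1781 counts), and 0.303 and 0.291 RPKM in reporter-negative TECs (166 and 169 counts). Every reporter-positive library was above both reporter-negative libraries. Its log2 fold changes over reporter-negative TECs were 2.83 in CCL21+ TECs (SE 0.25, edgeR adjusted p = 0.000219) and 3.18 in RANK+ TECs (SE 0.26, edgeR adjusted p = 8.72e-06), which are 7.11-fold and 9.05-fold. The reporter-positive populations overlapped (log2 fold change 0.35, SE 0.20, edgeR adjusted p = 0.166).

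Replicate 1 of the RANK+ TECs was the highest library of all for *H2-K1*, *H2-D1*, *B2m*, *Psmb8* and *Nlrc5*, and also had the largest sums of macrophage, thymocyte, mesenchyme and endothelial markers. Without it the log2 fold changes over reporter-negative TECs were 1.44 for *H2-K1*, 1.85 for *H2-D1*, 1.47 for *B2m*, 3.74 for *Psmb8* and 3.00 for *Nlrc5*, each still called. Without RANK+ replicate 1 the difference between the reporter-positive populations turned to -0.17 for *H2-K1* and -0.01 for *B2m*, neither called.

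**Figure D2:**
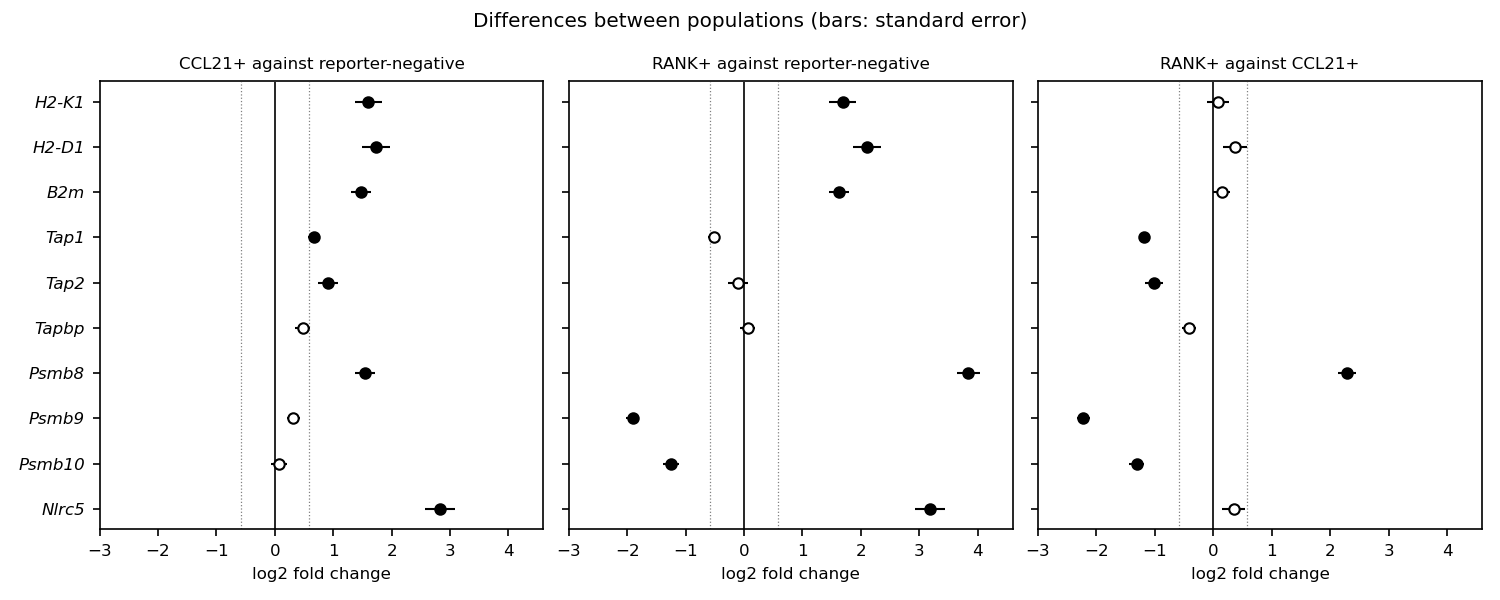
Log2 fold change of each of the 10 genes (horizontal axis) in the 3 comparisons of the populations, from edgeR. Points are estimates over 3 against 2 or 3 against 3 libraries, bars are standard errors, filled points are called genes, and dotted lines mark a fold change of 1.5. *Psmb8* and *Psmb9* lie on opposite sides of 0 in both comparisons of RANK+ TECs.

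The transporter genes showed another order. *Tap1* (ENSMUSG00000037321.17, chr17:34187553-34197225, plus strand) was at 92.1, 83.0 and 99.5 RPKM in CCL21+ TECs, 47.6, 41.5 and 41.9 RPKM in RANK+ TECs, and 54.3 and 60.6 RPKM in reporter-negative TECs. The 3 populations did not overlap, with CCL21+ TECs highest and RANK+ TECs lowest. It was higher in CCL21+ than in reporter-negative TECs (log2 fold change 0.67, SE 0.10, edgeR adjusted p = 0.00245) and lower in RANK+ than in CCL21+ TECs (-1.19, SE 0.09, edgeR adjusted p = 3.97e-06). Between RANK+ and reporter-negative TECs it had an edgeR adjusted p of 0.00161, but the fold change of 1.43 was under the threshold.

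*Tap2* (ENSMUSG00000024339.12, chr17:34203527-34216321, plus strand), the other TAP chain, was at 43.3, 31.2 and 37.5 RPKM in CCL21+ TECs, 25.6, 15.7 and 19.3 RPKM in RANK+ TECs, and 17.9 and 21.8 RPKM in reporter-negative TECs. The CCL21+ libraries lay above all others, and the other populations overlapped. Its log2 fold change was 0.91 over reporter-negative TECs (SE 0.18, edgeR adjusted p = 0.0101), and -1.01 for RANK+ against CCL21+ TECs (SE 0.15, edgeR adjusted p = 0.000443). The first of these calls was lost without either reporter-negative library (edgeR adjusted p = 0.0978 without replicate 1 and 0.0703 without replicate 2). In a formal edgeR test of a fold change over 1.5 against reporter-negative TECs, neither *Tap2* (adjusted p = 0.169) nor *Tap1* (adjusted p = 0.504) was called. The gene *Gm15821*, on the other strand, overlaps *Tap2* and had 40 to 176 counts in a library.

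*Tapbp* (ENSMUSG00000024308.15, chr17:33915899-33929292, plus strand) was at 220.3, 187 and 255 RPKM in CCL21+ TECs, 195 (replicate 1), 157 and 184 RPKM in RANK+ TECs, and 142 and 174 RPKM in reporter-negative TECs. In RPKM, the CCL21+ libraries lay above both reporter-negative libraries, and the RANK+ libraries overlapped both populations. With the TMM scaling of the tests, the RANK+ libraries all lay below the CCL21+ libraries and still overlapped the reporter-negative libraries. No comparison passed the fold threshold. Its log2 fold changes were 0.48 for CCL21+ against reporter-negative TECs (SE 0.13, edgeR adjusted p = 0.0414), 0.06 for RANK+ against reporter-negative TECs (SE 0.13, edgeR adjusted p = 0.72) and -0.42 for RANK+ against CCL21+ TECs (SE 0.11, edgeR adjusted p = 0.0116).

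The immunoproteasome genes did not move together. *Psmb8* (ENSMUSG00000024338.15, chr17:34197721-34201454, plus strand), the beta5 immunosubunit, was at 5.55, 6.29 and 6.62 RPKM in CCL21+ TECs, 39.7, 25.6 and 33.7 RPKM in RANK+ TECs, and 2.12 and 2.09 RPKM in reporter-negative TECs. The 3 populations were separate, in the order RANK+, CCL21+, reporter-negative. It was 14.3-fold higher in RANK+ than in reporter-negative TECs (log2 fold change 3.84, SE 0.20, edgeR adjusted p = 8.19e-07). Between RANK+ and CCL21+ TECs the change was 4.9-fold (2.29, SE 0.15, edgeR adjusted p = 2.54e-06), and between CCL21+ and reporter-negative TECs 2.92-fold (1.54, SE 0.18, edgeR adjusted p = 0.000873).

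*Psmb9* (ENSMUSG00000096727.3, chr17:34181987-34187764, minus strand), the beta1 immunosubunit, was at 118, 116 and 136 RPKM in CCL21+ TECs, 29.6, 30.8 and 25.4 RPKM in RANK+ TECs, and 93.2 and 105 RPKM in reporter-negative TECs. The 3 RANK+ libraries were far below the rest. It fell by 1.91 on the log2 scale in RANK+ against reporter-negative TECs (SE 0.12, edgeR adjusted p = 1.81e-06) and by 2.22 against CCL21+ TECs (SE 0.11, edgeR adjusted p = 5.72e-07). CCL21+ and reporter-negative TECs did not overlap in RPKM, but the log2 fold change of 0.32 (SE 0.12) had an edgeR adjusted p of 0.12. The exons of *Psmb9* and *Tap1* share 212 bases on opposite strands, and the sources used here do not say whether counting used strand.

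*Psmb10* (ENSMUSG00000031897.9, chr8:105935735-105938444, minus strand), the beta2 immunosubunit, lies outside the H2 complex. It was the most abundant of the 3 immunosubunits in all libraries, at 298, 306 and 391 RPKM in CCL21+ TECs, 133, 156 and 144 RPKM in RANK+ TECs, and 293 and 340.2 RPKM in reporter-negative TECs. RANK+ TECs were lowest, and the other populations overlapped. The log2 fold change was -1.25 against reporter-negative TECs (SE 0.14, edgeR adjusted p = 6.59e-05) and -1.31 against CCL21+ TECs (SE 0.13, edgeR adjusted p = 2.26e-05), and 0.07 between the other populations (SE 0.14, edgeR adjusted p = 0.843).

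Per length, *Psmb9* exceeded *Psmb8* by 21.2, 18.5 and 20.5 times in CCL21+ TECs and by 43.9 and 50.05 times in reporter-negative TECs. In RANK+ TECs the same ratio was 0.745, 1.21 and 0.753, so both genes stood at like levels there. No 100-base stretch of the transcripts of either gene occurs, on the same strand, in those of another gene. The antisense gene *Gm20496*, which overlaps *Psmb8*, had 4 counts in RANK+ replicate 1 and none in the other libraries.

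The constitutive partners gave the composition of each catalytic position. Of the 100-base windows of *Psmb5*, 22.2% occur in other genes, most of them in *Gm3375*, so its counts and the beta5 shares are less certain than those of the other subunits. *Psmb5*, *Psmb6* and *Psmb7* were not called in any comparison, with log2 fold changes from -0.52 to 0.20. The largest of these, *Psmb5* in RANK+ against reporter-negative TECs, was -0.52 (SE 0.11, edgeR adjusted p = 0.00406) and under the fold threshold. *Psmb11*, the cortical beta5 subunit, was at 228, 299 and 375 RPKM in CCL21+ TECs, 13.5, 36.9 and 19.8 RPKM in RANK+ TECs, and 331 and 338 RPKM in reporter-negative TECs. It fell by 3.93 on the log2 scale in RANK+ against reporter-negative TECs (SE 0.40, edgeR adjusted p = 3.45e-05).

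At beta5, *Psmb8* made up 20.8% ± 5.37 of the summed transcripts per length of *Psmb8*, *Psmb5* and *Psmb11* in RANK+ TECs (SD, n = 3), 1.52% ± 0.19 in CCL21+ TECs (SD, n = 3) and 0.446% ± 0.022 in reporter-negative TECs (SD, n = 2). *Psmb11* held 72.9% in CCL21+, 70.6% in reporter-negative and 14.4% in RANK+ TECs, where *Psmb5* held 64.7%. At beta1, the share of *Psmb9* was 38.8% ± 2.08 in CCL21+, 12.0% ± 1.57 in RANK+ (SD, n = 3 each) and 31.1% ± 0.561 in reporter-negative TECs (SD, n = 2). At beta2, *Psmb10* held 76.9% ± 1.55 in CCL21+, 53.8% ± 1.56 in RANK+ (SD, n = 3 each) and 74.4% ± 0.945 in reporter-negative TECs (SD, n = 2). RANK+ TECs therefore had the largest immunosubunit share at beta5 and the smallest at beta1 and beta2.

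Libraries of different populations did not overlap in any of the 9 comparisons of these shares. The exact two-sided permutation test gave p = 0.1 in 8 of them, the smallest that 3 against 3 or 3 against 2 libraries can give, and adjusted p = 0.1125 over the 9 tests. For *Psmb10* between CCL21+ and reporter-negative TECs the difference of 2.57 percentage points had an exact permutation p of 0.2. The size of the beta5 share depended on the length given to each gene: with all annotated exons, retained introns included, the difference between RANK+ and reporter-negative TECs was 11.3 rather than 20.4 percentage points. These are shares of transcripts, and subunits in assembled proteasomes were not measured.

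**Figure D3:**
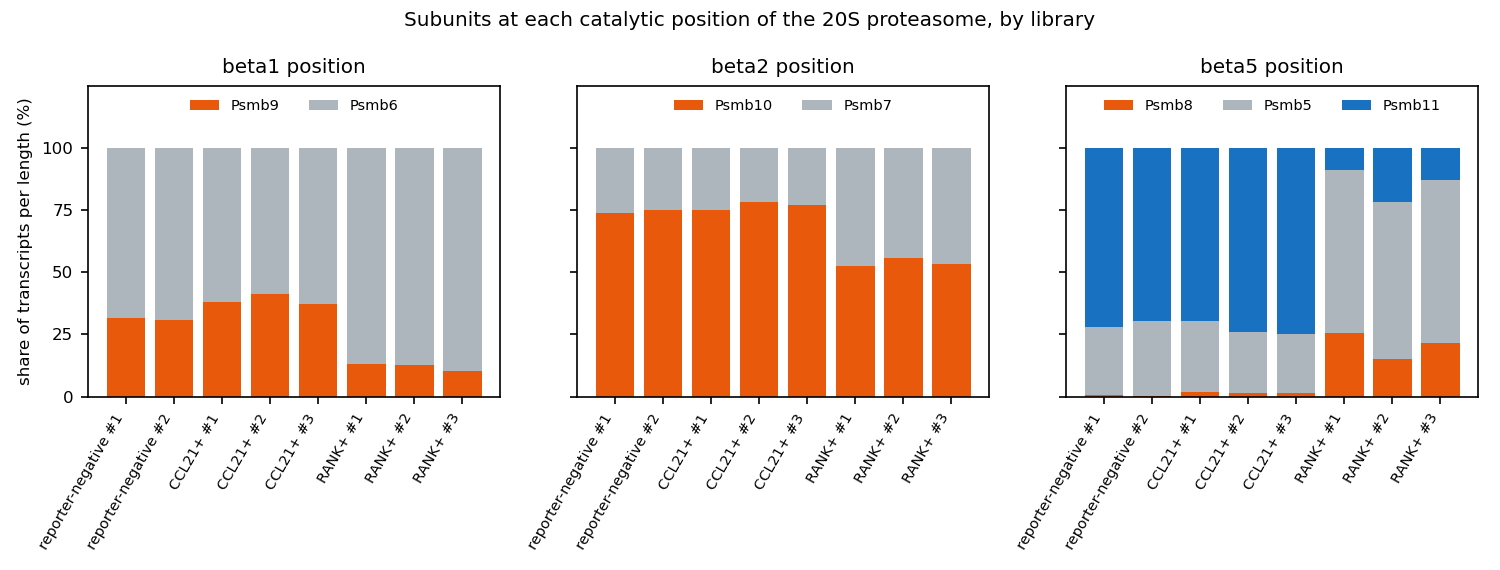
Share of transcripts per length (vertical axis, percent) of the subunits that compete for the beta1, beta2 and beta5 positions, as stacked bars for each of the 8 libraries. In the 3 RANK+ libraries *Psmb9* and *Psmb10* (orange) held smaller shares, at means of 12.0% and 53.8%, and *Psmb11* (blue) gave way to *Psmb5* (grey) and *Psmb8* (orange).

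Of 11 noncatalytic subunits, 2 were called lower in RANK+ than in reporter-negative TECs, *Psmb4* (log2 fold change -1.22, SE 0.14) and *Psma5* (-0.91, SE 0.13), a share near the 15.4% of all genes called lower, with a median of -0.40 over the list. By an adjusted p under 0.05 alone, 9 of the 11 were lower, beside 4708 of all 21451 genes. *Psme1*, a subunit of the interferon-inducible PA28 cap, was at 21.3, 16.2 and 19.6 RPKM in CCL21+ TECs, 111, 87.2 and 92.5 RPKM in RANK+ TECs, and 5.68 and 7.84 RPKM in reporter-negative TECs. It was 2.83-fold higher in CCL21+ and 13.2-fold higher in RANK+ than in reporter-negative TECs, both called, in the same population order as *Psmb8*. Of the 5 genes for activators and assembly, 4 were called higher in RANK+ than in reporter-negative TECs, beside 15.2% of all genes, including *Psme2*, the partner of *Psme1* (1.39, SE 0.11), and *Psme3*, of the nuclear cap (1.12, SE 0.10). The assembly factor *Pomp* had a log2 fold change of -0.18 (SE 0.09, edgeR adjusted p = 0.144).

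Of 5 other genes for peptide loading and trimming, 3 were called higher in RANK+ than in reporter-negative TECs, beside 15.2% of all genes. *Calr* (calreticulin), *Pdia3* (ERp57) and *Canx* (calnexin), chaperones that also fold many other glycoproteins, had log2 fold changes of 1.58 (SE 0.15), 1.01 (SE 0.16) and 0.80 (SE 0.14). In CCL21+ against reporter-negative TECs the same genes were between -0.17 and 0.04 and not called. *Tapbpl* and the aminopeptidase gene *Erap1* were not called in any of the 3 comparisons, at log2 fold changes from -0.30 to 0.53. With the replicate block, or with at least 10 counts in every library, 1 of the 5 genes was called higher in CCL21+ than in reporter-negative TECs. Of all genes, these settings called 1074 of 21451 and 1160 of 14615 higher. The transporter of the endoplasmic reticulum and its chaperones were therefore highest in different populations, *Tap1* and *Tap2* in CCL21+ and *Calr* in RANK+ TECs.

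Among 17 nonclassical class I and class I-like heavy chains, 9 were called higher in CCL21+ than in reporter-negative TECs, beside 4.53% of all genes, and 8 were called higher and 2 lower in RANK+ than in reporter-negative TECs, beside 15.2% and 15.4%. *H2-Q7*, a Qa-2 chain that needs B2m, was at 93.0, 71.8 and 68.3 RPKM in CCL21+ TECs, 215, 122 and 135 RPKM in RANK+ TECs, and 7.46 and 6.81 RPKM in reporter-negative TECs. Both reporter-positive populations were thus well above reporter-negative TECs, with log2 fold changes of 3.45 (SE 0.26) and 4.33 (SE 0.27). *H2-Q6* moved likewise (3.73, SE 0.33, and 3.96, SE 0.33), but 12.0% of the 100-base windows of *H2-Q7* and 10.8% of those of *H2-Q6* occur in other genes, so the division of their counts is uncertain. *H2-T23* (Qa-1, which presents leader peptides of class I chains) and *H2-Q4* were called higher in CCL21+ than in reporter-negative TECs, at 1.06 (SE 0.20) and 1.46 (SE 0.16), and both were called lower in RANK+ than in CCL21+ TECs (-0.60, SE 0.17, and -1.05, SE 0.14). The second call for *H2-T23* was just past the fold threshold, and the number of the 17 genes called lower in this comparison was 5 with TMM and 4 with DESeq2's size factors, upper-quartile scaling, or no expression filter. *Fcgrt*, the neonatal Fc receptor, and *Mr1*, which presents vitamin B metabolites to MAIT cells, were called lower in RANK+ than in reporter-negative TECs (-2.35, SE 0.19, and -1.31, SE 0.19). *H2-Q1* was at 4.36, 1.29 and 2.42 RPKM in RANK+ TECs and at most at 0.0554 RPKM in the other 5 libraries. Of its 100-base windows, 8.05% occur in other genes, so the division of its counts is uncertain too.

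**Figure D4:**
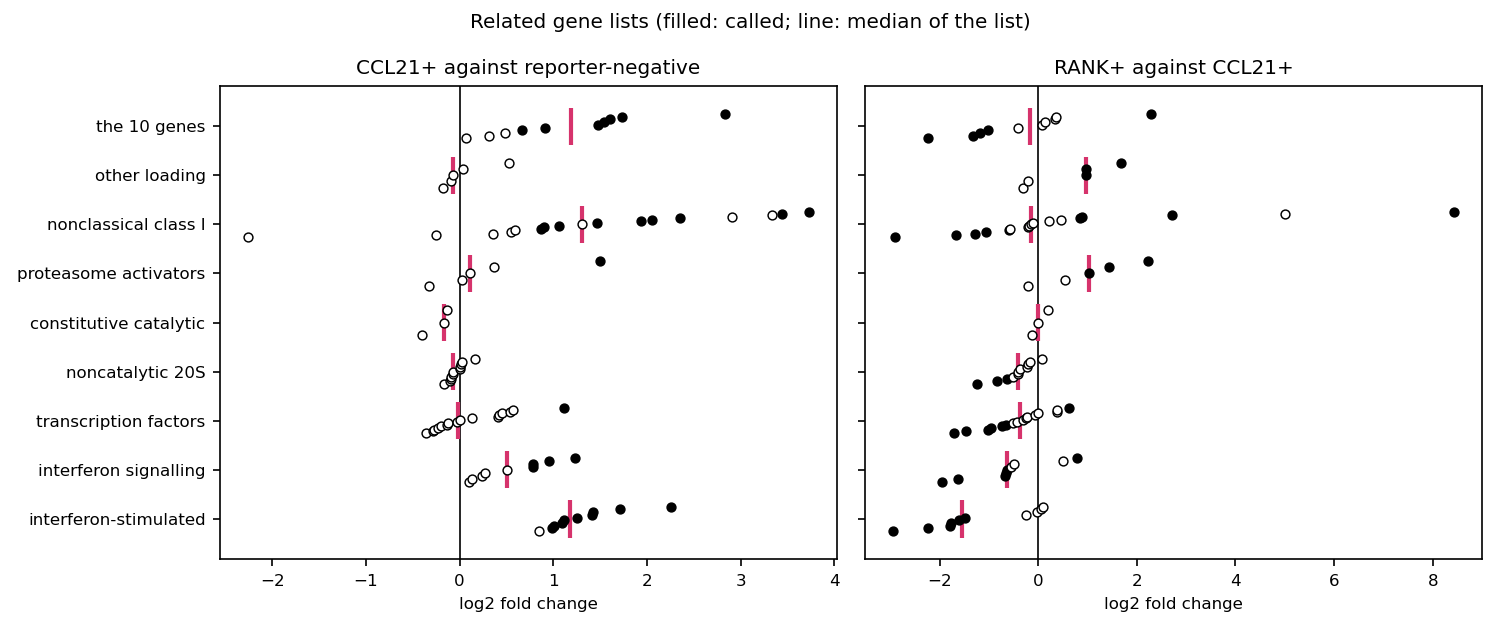
Log2 fold changes from edgeR (horizontal axis) of the 10 genes and of related lists, for CCL21+ against reporter-negative TECs and RANK+ against CCL21+ TECs. Each point is a gene, filled where called, and the line is the median of the list. The interferon-stimulated genes had medians of 1.18 and -1.54, and the 10 genes had medians of 1.19 and -0.17.

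Of 16 genes for factors that act on class I promoters, 2 were called higher and 6 lower in RANK+ than in reporter-negative TECs, beside 15.2% and 15.4% of all genes, so the higher count was no more than the background. *Irf1*, which carries interferon signals, was lower (log2 fold change -1.04, SE 0.11), as were the *Nfkb1* gene (-1.28, SE 0.12) and the RFX subunits *Rfxap* (-1.18, SE 0.16) and *Rfxank* (-0.78, SE 0.14), through which Nlrc5 reaches DNA. *Nfkb2* (1.08, SE 0.12) and *Relb* (0.81, SE 0.10), of the noncanonical NF-kappa B pathway, were higher. In CCL21+ against reporter-negative TECs, 1 of the 16 was called higher, *Ciita* (1.11, SE 0.18, edgeR adjusted p = 0.00447), beside 4.53% of all genes. This count was 3 with DESeq2's size factors or at least 10 counts in every library. Of all genes, these settings called 1032 of 21451 and 1160 of 14615 higher. It was 2 with upper-quartile scaling, in DESeq2's Wald test, with the replicate block or with only the libraries compared. These called 1038, 1295, 1074 and 1214 of all genes higher. By an adjusted p under 0.05 alone the count was 6, beside 1348 of all 21451 genes. *Irf1* was at 88.3, 71.1 and 91.3 RPKM in CCL21+ TECs, 33.2, 31.8 and 33.8 RPKM in RANK+ TECs, and 58.3 and 67.2 RPKM in reporter-negative TECs, the same order as *Tap1*.

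Of 10 other interferon-stimulated genes, 9 were called higher in CCL21+ than in reporter-negative TECs, and 6 were called lower in RANK+ than in CCL21+ TECs, beside 4.53% and 15.7% of all genes. *Isg15*, a ubiquitin-like modifier, was at 141, 139.5 and 191 RPKM in CCL21+ TECs, 25.8, 22.7 and 18.1 RPKM in RANK+ TECs, and 55.8 and 90.1 RPKM in reporter-negative TECs. The populations were separate, with RANK+ TECs lowest (log2 fold change -2.94 against CCL21+ TECs, SE 0.18, edgeR adjusted p = 1.59e-06). Against reporter-negative TECs, these interferon-stimulated genes went both ways in RANK+ TECs, with 3 called higher and 2 lower, beside 15.2% and 15.4% of all genes. The higher ones were *Mx1* (2.30, SE 0.53), *Rsad2* (1.35, SE 0.28) and *Cxcl10* (0.98, SE 0.20), and the lower ones *Isg15* (-1.82, SE 0.18) and *Ifit1* (-0.80, SE 0.25). The count of lower calls was 1 with DESeq2's size factors, with upper-quartile scaling and in DESeq2's Wald test. It was also 1 with at least 10 counts in every library and with only the libraries compared. By an adjusted p under 0.05 alone it was 4, beside 4708 of all 21451 genes. Of 9 receptor and signalling genes for interferons, 4 were called higher in CCL21+ than in reporter-negative TECs, *Stat2*, *Jak1*, *Ifngr1* and *Ifngr2*, beside 4.53% of all genes. *Irf9* and *Stat2* were lower in RANK+ than in CCL21+ TECs (-1.94, SE 0.11, and -1.64, SE 0.13), whereas *Ifngr2* was higher (0.79, SE 0.09). The counts of the interferon signalling genes called lower in RANK+ than in CCL21+ TECs depended on scaling. They were 5 with TMM and 2 with DESeq2's size factors, beside 3374 and 2996 of all 21451 genes.

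To find genes that varied like the 10, the log2 CPM of each of the 10 was standardized over the 8 libraries and averaged. Among 9271 genes with a mean of at least 10 CPM, those with the highest Pearson r to this mean were *Slc6a6*, a taurine transporter (r = 0.986), *Dok1*, a signalling adaptor (0.984), *Vdr*, the vitamin D receptor (0.983), *Il4ra*, an interleukin receptor chain (0.982), and *Pdcd1lg2*, which encodes the ligand PD-L2 (0.98). These r values describe 8 libraries that fall into 3 populations. The 10 genes themselves ranged from 0.16 for *Psmb10* to 0.893 for *Tapbp*, so the mean stood for some of them poorly.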

How the data were processed

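Expected counts from RSEM, 1 value per gene and library, were what the authors deposited, neither normalized nor filtered. The submitters' processing notes list bcl2fastq 2.20, Trimmomatic, STAR 2.5.1, RSEM 1.3.1 and the genome build mm10, whereas the study's methods name CLC Genomics Workbench with default parameters, and the kits named in the labels and in the methods differ. RSEM divides reads that match several genes, which left 4.47% to 5.94% of a library's values as fractions, and the expected counts were rounded before testing.

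All 55450 identifiers matched GENCODE M21. RPKM used library totals and the exons of protein-coding basic transcripts, a choice made after the data were seen because retained introns lengthen several genes. One edgeR 4.0.16 model (R 4.3.3; TMM, default expression filter, quasi-likelihood test, Benjamini-Hochberg) was fitted to all 8 libraries, with the study's thresholds. It was tested on simulated data. Replicate libraries differed beyond sampling noise (chi-square per gene from 77.3 to 275). A count of 3 was the floor, for counting error only.

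The 10 genes and all lists were chosen with earlier results of these data known. Named were all 10 genes, and from each list those called in a comparison or most abundant, except for a called gene that is not reported here. Alternatives were DESeq2 1.42.0 (Wald test and size factors), upper-quartile scaling, other filters and thresholds, only the libraries compared, a replicate block, no *Gm26917* and *Gm42418*, other lengths or denominators, and each library left out.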

Additional observations from a re-analysis of the deposited data

How the results depend on the processing

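The numbers of the 10 genes called stayed within 1.5 times under every alternative, at 5 to 8, 7 to 8 and 5 to 6 for CCL21+ against reporter-negative, RANK+ against reporter-negative and RANK+ against CCL21+ TECs. Among all genes, an adjusted p under 0.05 alone called 10501 between RANK+ and reporter-negative and 11516 between RANK+ and CCL21+ TECs, and a formal test of a fold change over 1.5 called 708 between CCL21+ and reporter-negative TECs, against 6553, 6850 and 1781. With 1 library left out, these counts were 5490 to 6780, 6403 to 6948 and 674 to 2149, the last at 796 without reporter-negative replicate 1 and 674 without replicate 2, where the lone library was assumed to vary like the other groups. DESeq2's size factors moved the median log2 fold change of all genes between RANK+ and reporter-negative TECs from 0.06 to 0.20, and their split of higher and lower calls from 3252 and 3301 to 3588 and 2683.

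Signs changed only for differences that were not called. For *Tap2* in RANK+ against reporter-negative TECs the log2 fold change became 0.0457 with DESeq2's size factors, 0.0187 with upper-quartile scaling, 0.0448 in DESeq2's Wald test and 0.1094 with at least 10 counts in every library, and ranged from -0.2505 to 0.0309 with 1 library left out (above 0 without RANK+ replicate 2). Leaving out 1 library also gave -0.0137 (without reporter-negative replicate 1) to 0.1348 for *Tapbp* in that comparison and -0.006 (without CCL21+ replicate 3) to 0.1377 for *Psmb10* in CCL21+ against reporter-negative TECs. For RANK+ against CCL21+ TECs it gave -0.1683 to 0.2257 for *H2-K1* and -0.0051 to 0.278 for *B2m*, both below 0 without RANK+ replicate 1. The cause was not tested.

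Shares depended on gene length. In percentage points, with all annotated exons the differences at beta5 were 11.28 (RANK+ against reporter-negative), 10.707 (RANK+ against CCL21+) and 0.573 (CCL21+ against reporter-negative), at beta1 -17.553 and -24.934 and at beta2 -14.247 and -15.76 for the first 2 of these comparisons. Shares of counts gave 0.52 at beta5 (CCL21+ against reporter-negative) and -24.591 and -33.067 at beta1, and *Psmb8* over *Psmb8* and *Psmb5* alone gave 4.097 at beta5 (CCL21+ against reporter-negative). No direction changed.

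No label says that a replicate number marks shared embryos. Same-numbered CCL21+ and RANK+ libraries had correlations of deviations across genes of 0.126, 0.0485 and 0.0707, against -0.0984 to 0.041 for other pairs, and each of these 6 libraries correlated best with its own number, which is a hint from the data and not from the design. Deviations were taken from the mean of each population, so they cancel within it and these correlations are not independent of each other. The 2 reporter-negative libraries deviate in opposite directions by construction and were not read. With the replicate number as a block, 1977, 6528 and 6840 genes were called, and the same number of the 10 genes in each comparison. In CCL21+ against reporter-negative TECs, the block moved the number called higher from 0 to 1 for peptide loading, from 1 to 2 for factors at class I promoters and from 0 to 2 for thymocyte markers. It moved the thymocyte markers from 8 to 6 in RANK+ against reporter-negative TECs and the mesenchyme markers from 3 to 4 in RANK+ against CCL21+ TECs. Over all genes, the numbers called higher in these 3 comparisons moved from 972 to 1074, from 3252 to 3200 and from 3476 to 3458. *Nlrc5* had only 166 and 169 counts in the reporter-negative libraries, and what set its precision was not tested.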
